A study of Mus musculus with 5 samples.

Results

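The insulin-like growth factor genes described here are 10 of the 31053 genes that the count tables list: the ligands Igf1 and Igf2, the receptor Igf1r, the binding proteins Igfbp2, Igfbp3, Igfbp4, Igfbp5, Igfbp6 and Igfbp7, and the protease Pappa. They were picked by gene symbol, and no threshold on a measured value decides which genes belong. The study followed the first waves of follicles in the mouse ovary. Single-cell RNA sequencing was done on ovarian cells of untreated C57BL6/J mice aged 2, 3, 4, 5 or 6 wk, with 1 library for each age. The ovaries were dissociated with trypsin, live cells were sorted, and 10x Genomics 3′ v3.1 kits were used for the libraries. All groups share this genotype and lack of treatment, and no transgene or perturbation separates them. How many mice were pooled for a library is not given in the sources used here, so a difference between ages is a difference between libraries, and the spread between mice was not measured.

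Insulin-like growth factors are small hormones that act through the receptor tyrosine kinase encoded by Igf1r. In follicles, Igf1 is known to act together with follicle-stimulating hormone on the growth and steroid synthesis of granulosa cells, the cells that surround the oocyte. The binding proteins hold the ligands in the extracellular space, and the pregnancy-associated plasma protein encoded by Pappa is a protease that cuts some of them, Igfbp4 and Igfbp5 included, which releases the ligand. Igfbp7 is a more distant relative that binds these ligands weakly.

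The libraries held 7779 to 11077 cells and 93438618 to 144609431 UMIs (distinct RNA molecules counted), with medians of 9056 to 12424 UMIs per cell. Between 18 and 35 cell barcodes were shared by any pair of libraries, at most 0.399% of the smaller library. Of 48163 cells, 40543 fell into 10 classes named from marker genes, and the other 7620 stayed unnamed, most of them in clusters with few UMIs per cell. The largest classes were granulosa-like (18581 cells) and stromal-like (13642 cells), followed by smooth muscle-like (4148), theca-like (1474), pericyte-like (860), blood endothelial-like (710), hematopoietic-like (493), surface epithelial-like (322), lymphatic endothelial-like (223) and rete ovarii-like (90). No cluster qualified as germ cell-like, and among granulosa cells none qualified as primordial-like or secondary-like. The tables come from Cell Ranger 3.1.0 for 2, 3 and 4 wk and from Cell Ranger 6.0.1 for 5 and 6 wk according to their headers, so the version moves with age.

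The members lie on 7 chromosomes of the mouse genome (build GRCm38, RefSeq GRCm38.p6 annotation). Igfbp2 (chr1:72824480-72852474, plus strand) and Igfbp5 (chr1:72858065-72874865, minus strand) are neighbours that point towards each other across a gap of 5590 bases. Igf1 lies at chr10:87858265-87937047 (plus strand), Igf1r at chr7:67952257-68233668 (plus strand) and Igf2 at chr7:142650768-142666816 (minus strand). The other genes are Igfbp3 at chr11:7206086-7215498 (minus strand), Igfbp4 at chr11:99040005-99052655 (plus strand), Igfbp6 at chr15:102144186-102149512 (plus strand), Igfbp7 at chr5:77349240-77408045 (minus strand) and Pappa at chr4:65124174-65357509 (plus strand).

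The start regions of 4 genes are shown because these genes carry some of the differences between cell types and ages that follow: Igf1 and Igfbp5, which moved in opposite directions in granulosa-like cells, Igfbp2, the neighbour of Igfbp5, and Igfbp4, whose level differed between granulosa stages. Each is the 300 bases from 250 before to 50 after a RefSeq start, 5′ to 3′ on the strand of the gene, with the letters of 3 searched motifs in capitals. The first motif was TATAAA, found before many starts that a TATA box positions. The second was CCAAT, and the last was the GC box letters GGGCGG. Each was looked for on both strands.
Igf1 (chr10:87860861-87861160, plus strand, inside the span of the gene): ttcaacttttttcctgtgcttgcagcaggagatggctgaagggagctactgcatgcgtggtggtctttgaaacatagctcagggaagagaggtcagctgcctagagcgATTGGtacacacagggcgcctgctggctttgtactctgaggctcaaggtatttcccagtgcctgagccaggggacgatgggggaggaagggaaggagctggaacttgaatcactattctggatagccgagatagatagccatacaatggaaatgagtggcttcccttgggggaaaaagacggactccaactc
Igfbp2 (chr1:72824230-72824529, plus strand): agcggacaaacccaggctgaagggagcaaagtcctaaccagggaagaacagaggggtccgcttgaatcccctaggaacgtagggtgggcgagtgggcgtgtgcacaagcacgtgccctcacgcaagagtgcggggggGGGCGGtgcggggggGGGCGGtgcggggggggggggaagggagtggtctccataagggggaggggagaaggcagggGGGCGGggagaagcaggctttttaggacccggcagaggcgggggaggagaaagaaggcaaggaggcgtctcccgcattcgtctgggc
Igfbp4 (chr11:99040994-99041293, plus strand): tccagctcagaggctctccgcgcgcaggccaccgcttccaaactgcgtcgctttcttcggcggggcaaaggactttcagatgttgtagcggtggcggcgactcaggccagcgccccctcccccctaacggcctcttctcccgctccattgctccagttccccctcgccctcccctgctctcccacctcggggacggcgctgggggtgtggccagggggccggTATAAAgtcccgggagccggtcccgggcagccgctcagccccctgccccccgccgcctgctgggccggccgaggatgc
Igfbp5 (chr1:72874816-72875115, minus strand): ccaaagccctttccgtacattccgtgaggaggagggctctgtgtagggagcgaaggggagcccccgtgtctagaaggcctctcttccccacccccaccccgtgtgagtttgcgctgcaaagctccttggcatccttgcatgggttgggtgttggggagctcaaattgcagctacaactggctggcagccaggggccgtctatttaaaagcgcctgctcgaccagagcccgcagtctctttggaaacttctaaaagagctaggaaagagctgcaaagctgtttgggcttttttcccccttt
The Igf1 window held 1 CCAAT, read on the opposite strand as ATTGG, 142 bases before the start. The Igfbp2 window held 3 copies of GGGCGG, the Igfbp4 window held TATAAA 28 bases before the start, and the Igfbp5 window held none of the 3. Like that of Igf1, the Igfbp4 window lies inside the span of its gene, which begins at chr11:99040005. Igfbp2 has a second window in RefSeq, chr1:72825137-72825436, which also held none. Over all 32851 windows of this length, 13.6% held TATAAA, 37.4% held CCAAT and 35.7% held GGGCGG. Bases G and C made up 52.3% of the Igf1 window, 67% of that of Igfbp2, 71.3% of that of Igfbp4 and 56.3% of that of Igfbp5, against a median of 52.7% over all windows.

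Levels are given as the UMIs of a gene in 1000000 UMIs of the cells summed (CPM), in each library with at least 30 cells of the group. Intervals are exact Poisson intervals for levels, exact binomial intervals for shares and exact conditional intervals for ratios, each at 95%, and they cover counting error only. Because a group has 1 library per age, no test was run and no p-value is given. A gene was counted as higher or lower when its ratio was past 2-fold in the same direction in every library compared, with at least 50 UMIs in all.

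The members were expressed in different parts of the ovary. By median level, granulosa-like cells were highest for Igf1r and surface epithelial-like cells for Igfbp2, Igfbp5 and Igfbp6. Blood endothelial-like cells were highest for Igfbp3 and Igfbp7, and lymphatic endothelial-like cells for Igfbp4. Igf1 was shared between granulosa, stromal, surface epithelial and hematopoietic cells, and Igf2 was hardly detected in any class.

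**Figure D1:**
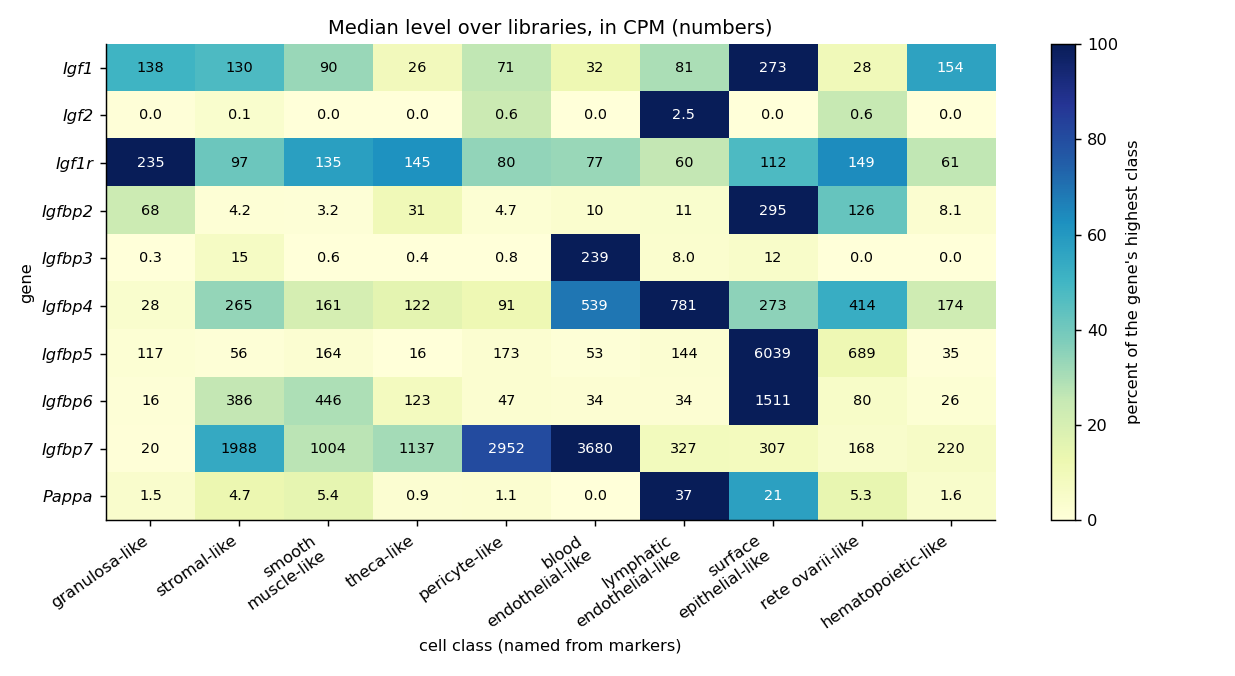
Median level of each member (vertical) in each cell class (horizontal) over the libraries with at least 30 cells, as CPM printed in the cell, with colour giving the percent of the highest class of that gene. Lymphatic endothelial-like medians rest on 4 libraries and rete ovarii-like on 2. The darkest squares for Igfbp5 and Igfbp6 are in surface epithelial-like cells (medians of 6039 and 1511 CPM), and the lowest Igfbp7 is in granulosa-like cells (20 CPM).

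Of the ligands, Igf1 stood at 31.3, 114, 216, 138 and 138 CPM in granulosa-like cells at 2, 3, 4, 5 and 6 wk. In stromal-like cells, which hold the connective tissue of the ovary, it was 262, 119, 130.1, 144 and 86.3 CPM. The order of these classes thus differed between libraries, with stromal-like cells above granulosa-like cells at 2, 3 and 5 wk and below them at 4 and 6 wk. Surface epithelial-like cells held 338, 273, 256, 359.5 and 56.9 CPM, and hematopoietic-like cells 90.3, 154, 156, 368 and 117 CPM. The lowest medians were in theca-like cells, the androgen-making cells around the follicle, at 41.6, 25.3, 25.5, 7.19 and 26.7 CPM. Stromal-like cells exceeded smooth muscle-like cells (153, 90.2, 106, 75.9 and 67.3 CPM) in every library.

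Granulosa-like cells held a larger part of the Igf1 RNA of the named cells at 3, 4, 5 and 6 wk than at 2 wk. At 2 wk stromal-like cells held 75.2% of it (95% interval 74.5 to 75.9%) and granulosa-like cells 11.0% (10.49 to 11.5%). Granulosa-like cells then held 56.6% at 3 wk, 79.7% at 4 wk, 55.8% at 5 wk and 70.0% at 6 wk. These shares depend on how many cells of each class the dissociation and the sort recovered as well as on the level per cell.

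Igf2 gave 23, 14, 4, 6 and 4 UMIs in the whole libraries, and 49 in all over the classes with at least 30 cells. No class exceeded 4.44 CPM. The count is uncertain, because Gm49394, on the same strand, shares 3596 of the 5723 exon bases of Igf2 (62.8%) and 497 of its last 500, and reads that fit more than 1 gene are not counted by Cell Ranger. Igf2 therefore takes no further part in the comparisons, and its low count is not a statement on Igf2 RNA.

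The receptor Igf1r differed less between classes than the other members. It was 241, 174, 189.6, 235 and 267 CPM in granulosa-like cells, above 8 of the 9 other classes in every library they shared. The exception was theca-like cells at 2 wk, with 255 CPM, whose later levels were 98.0, 95.5, 161 and 145 CPM. Hematopoietic-like cells held 46.2 to 73.2 CPM and stromal-like cells 78.8 to 129.7 CPM.

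Igfbp2 marked surface epithelial-like cells, at 602, 92.1, 482, 295 and 114 CPM, and granulosa-like cells, at 142, 77.7, 51.9, 68.4 and 61.1 CPM. Rete ovarii-like cells, which reached 30 cells at 2 and 3 wk, held 131 and 120.5 CPM. Of all Igfbp2 UMIs in named cells, granulosa-like cells held 85.7%, 91.5%, 89.9%, 63.2% and 94.8%. Theca-like cells held 31.5, 30.7, 24.5, 108 and 16.4 CPM, so that 5 wk stood apart from the other 4 libraries. At 5 wk the granulosa markers summed in theca-like cells were 17.9% of their level in granulosa-like cells, against 5.8 to 11.5% in the other libraries, and the part of carried-over granulosa RNA in the Igfbp2 value was not tested. The Igfbp2 level of theca-like cells at 5 wk was above that of the granulosa-like cells themselves.

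Among the classes, Igfbp3 had its highest level in blood endothelial-like cells, although stromal-like cells gave more of its UMIs (2666 against 2175). A mesenchymal subgroup described below, the Col14a1 adventitial fibroblast-like cells, gave 2411 UMIs. Its level was above that of blood endothelial-like cells at 3, 5 and 6 wk. Blood endothelial-like cells held 359, 93.0, 175, 257 and 239 CPM, above every other class in every library. Granulosa-like cells held at most 0.709 CPM. Lymphocyte-like and dendritic-like cells, which served as a reference for free RNA (147 cells and 1003469 UMIs over all ages), had 0 Igfbp3 UMIs, and the floor of 3 UMIs used for a count of 0 is 2.99 CPM there.

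Igfbp4 was highest in lymphatic endothelial-like cells, at 1134, 782, 716 and 779.8 CPM at 2 to 5 wk, above every other class in each of these libraries. Blood endothelial-like cells came next at 347 to 751 CPM. Granulosa-like cells stood at 13.5, 27.3, 38.1, 43.3 and 27.7 CPM. The free-RNA reference held 12.0 CPM over all ages, but its lymphocyte-like cells alone held 48.6 CPM at 2 wk, on 6 UMIs from 16 cells (95% interval 17.8 to 105.7), and 37.9 CPM at 5 wk on 4 UMIs. All 12 Igfbp4 UMIs of the reference came from lymphocyte-like cells, while dendritic-like cells gave 0 at every age. Whether these UMIs are free RNA was not tested, and no expression is read from the granulosa-like level at 2 wk.

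By level, Igfbp5 was far the highest in surface epithelial-like cells, although granulosa-like cells gave more of its UMIs (75219 against 20660). Surface epithelial-like cells held 6039, 5191, 5155, 6371 and 7018 CPM, the highest level of every library, and after each cell was thinned to 3000 UMIs at least 99.0% of them still had an Igfbp5 UMI (unthinned at least 98.5%). Granulosa-like cells fell from 832 CPM at 2 wk to 263, 39.0, 108 and 117 CPM. The free-RNA reference held 3.99 CPM.

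Igfbp6 was also highest in surface epithelial-like cells, at 1511, 3098, 2362, 1253 and 1019.6 CPM. Smooth muscle-like cells held 408, 644, 522, 446 and 391 CPM and stromal-like cells 339, 416, 505, 386 and 365 CPM. Granulosa-like cells held 28.9, 28.9, 14.5, 16.1 and 12.5 CPM, against 5.98 CPM in the free-RNA reference.

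Igfbp7 was a gene of blood vessels and stroma, with only 206.5 to 545 CPM in lymphatic endothelial-like cells. Blood endothelial-like cells held 3338, 3248, 3680.4, 6532 and 7214 CPM, and pericyte-like cells, which wrap small vessels, 2952, 2380.5, 2635, 3326 and 3133 CPM. Stromal-like cells held more in each later library up to 5 wk, at 1371, 1562, 1988, 2601 and 2428 CPM. Granulosa-like cells held 19.7, 18.1, 19.8, 23.4 and 28.1 CPM, below the 29.9 CPM of the free-RNA reference, so no expression is read from them. Of the 6629 Igfbp7 UMIs in granulosa-like cells, 3867 came from a cluster of 409 cells led by Col1a2, Col1a1 and Dcn, genes of fibroblasts, which stayed without a stage name. Exons of Igfbp7 overlap those of Polr2b on the opposite strand.

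The protease gene Pappa was low in most classes. Lymphatic endothelial-like cells held 13.3, 32.4, 42.1 and 52.8 CPM at 2 to 5 wk, and stromal-like cells 6.36, 5.25, 3.05, 4.74 and 1.54 CPM. In granulosa-like cells it differed between stages.

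Granulosa-like cells were compared in each library with the mesenchymal cells, the sum of theca-like, smooth muscle-like and stromal-like cells. Of 16657 genes tested, 8% were higher and 11.3% lower in granulosa-like cells in all 5 libraries. None of the 9 members tested was higher and 4 were lower, with a median log2 ratio of −1.03 against 0.15 over all genes. The 4 lower genes were all binding proteins: Igfbp7 was 65.2-fold to 85.4-fold lower, Igfbp3 17.4-fold to 72.2-fold, Igfbp6 11.7-fold to 31.9-fold and Igfbp4 2.94-fold to 20.9-fold. Igfbp2 went the other way in every library, by 1.96-fold at 5 wk and up to 21.4-fold elsewhere, and it met the rule once the 5 wk library was left out. Igf1r was 1.73-fold to 2.40-fold higher. Igf1 had no common direction, with a ratio of 0.133 at 2 wk and up to 1.91 later.

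**Figure D2:**
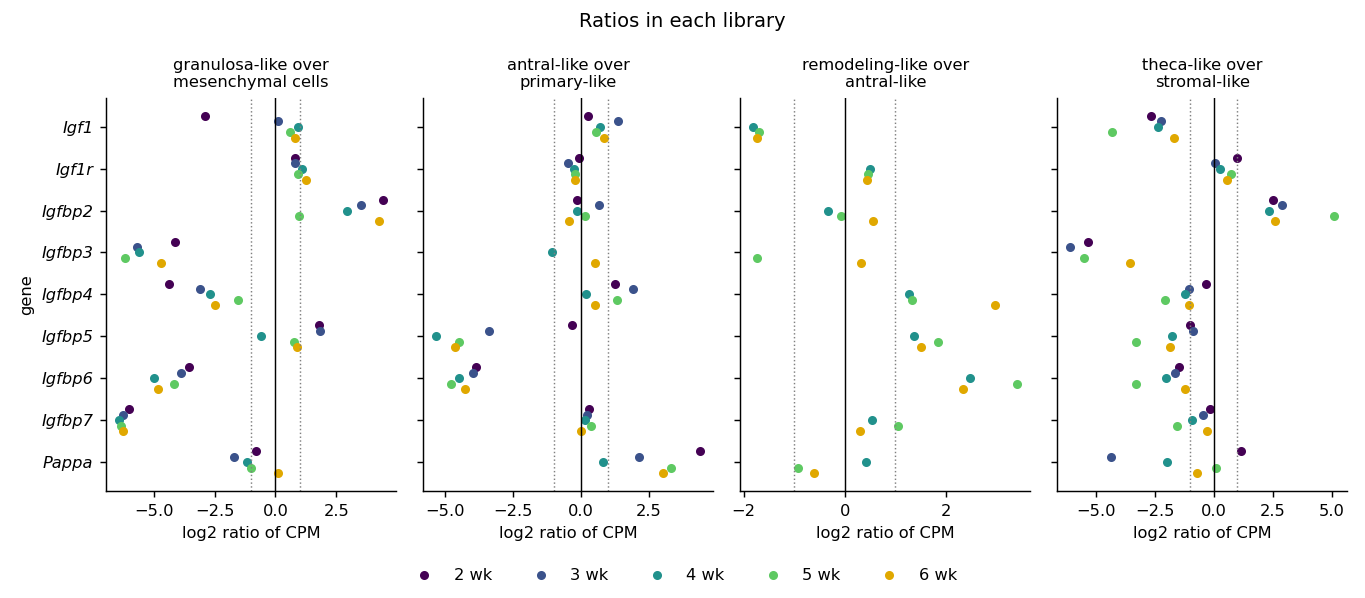
Log2 ratio of CPM for each member (vertical axis) in 4 comparisons, 1 point per library, with the solid line at no difference and dotted lines at 2-fold. Libraries in which 1 group had 0 UMIs are not drawn, and Igf2 is left out. The Igfbp6 and Igfbp7 points of granulosa-like over mesenchymal cells all lie left of the dotted line, and Igf1 in remodeling-like over antral-like cells lies left of it in all 3 libraries.

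The partner genes of the pathway, 18 genes that bind, cut, regulate or relay the same signals, were counted by the same rule. The list was chosen with earlier results of these data known. Of 16 tested, none was higher in granulosa-like than in mesenchymal cells and 4 were lower: Pappa2, a relative of Pappa, Stc1 and Stc2, whose products inhibit these proteases, and the receptor-binding adaptor Grb10. Stc1 was 13.9-fold to 54.1-fold lower, Stc2 4.11-fold to 11.7-fold and Grb10 18.7-fold to 30.9-fold. The Pappa2 call rests on 9 UMIs in granulosa-like cells over the 5 libraries.

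Within the granulosa-like cells, 13946 of 18581 fell into 5 stages named from markers: primary-like, S phase-like, mitotic-like, antral-like and remodeling-like. Remodeling-like refers to markers of granulosa cells in follicles that lose their oocyte. The members were kept out of the genes used for clustering, so none of them placed a cell. A stage did not always consist of the same clusters. Of 115 remodeling-like cells at 2 wk, 108 belonged to a cluster led by Rapgef5, Pamr1 and Angpt2, while at 4, 5 and 6 wk most belonged to clusters with Lox and Prg4 or with S100a6 and Tinagl1 among their leading genes. Of 259 antral-like cells at 2 wk, 129 belonged to a cluster led by Cyp11a1, Inhba and Lhcgr, which held 142 of 840 at 4 wk. By imaging, the paper counted no antral follicles up to 2 wk and describes the growing follicles of that age as secondary. It nevertheless assigns granulosa clusters of 2 wk to antral follicles by expression. The name antral-like thus rests on markers, and follicle stage and age cannot be told apart in antral-like ratios over 2 wk. The paper also places the start of follicle atresia after 2 wk. At 2 wk the name remodeling-like thus rests on markers alone. Levels of these cells at that age are not read as those of follicles that lose their oocyte.

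The stages differed in ligand, binding protein and protease. By the levels themselves, without regard to counting error, antral-like cells held more Igf1 and Pappa than primary-like cells and less Igfbp5 and Igfbp6 in all 5 libraries. Only Igfbp6 passed 2-fold in each. Remodeling-like cells at 4, 5 and 6 wk held less Igf1 and more Igfbp4, Igfbp5 and Igfbp6 than antral-like cells.

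**Figure D3:**
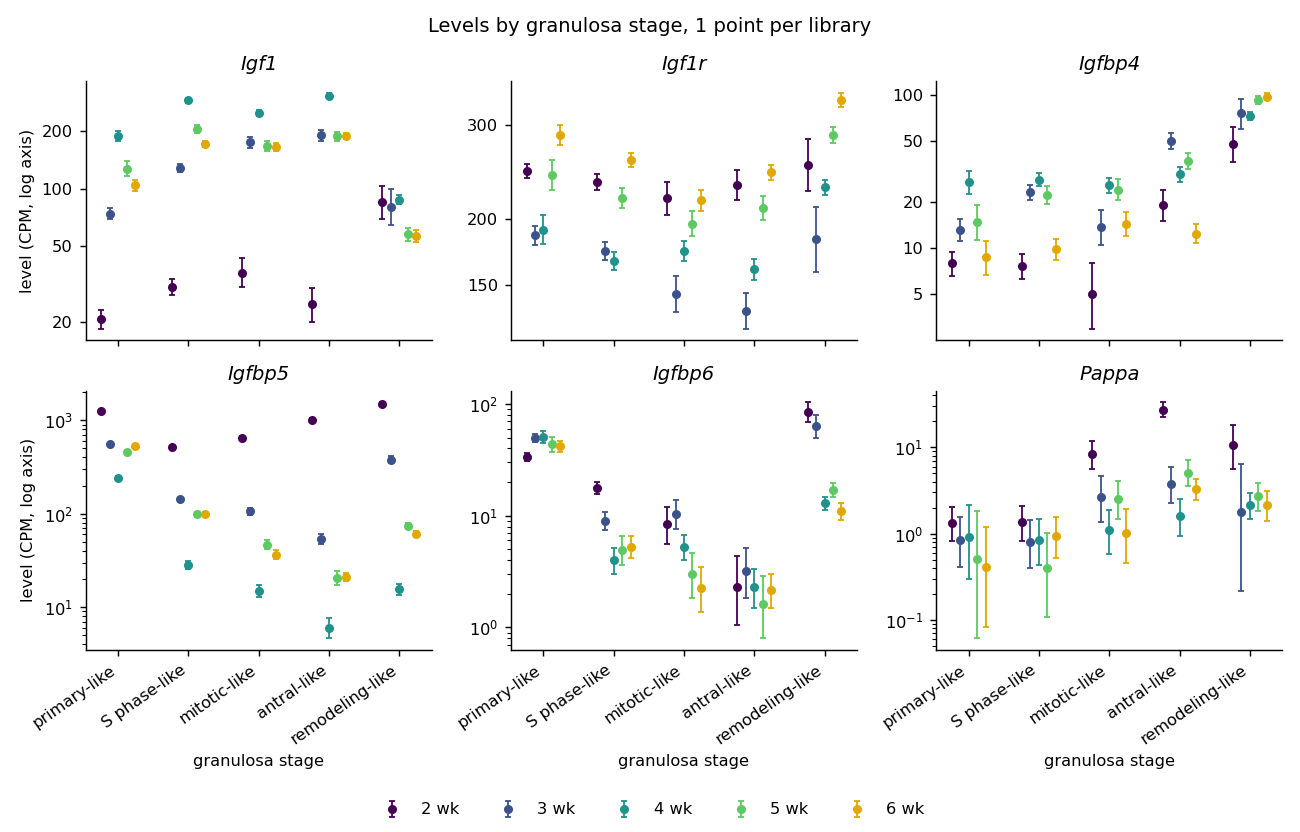
Level of 6 members (CPM, log axis) in the 5 granulosa stages, 1 point per library coloured by age, with 95% exact Poisson intervals. In antral-like cells Igf1 lies at 24.9 CPM at 2 wk and between 188 and 307 CPM later, whereas Igfbp5 falls from 1017 CPM to between 6.01 and 53.9 CPM. Remodeling-like cells have the highest Igfbp4 of every library.

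Igf1 in antral-like cells was 24.9, 190.2, 307, 188 and 189 CPM at 2, 3, 4, 5 and 6 wk. Primary-like cells held 20.8, 74.1, 188, 127 and 104 CPM, so the antral-like level was higher in every library, by 1.199-fold at 2 wk and up to 2.57-fold later. At 2 wk the counting error of this ratio includes no difference. Remodeling-like cells held 85.2, 80.7, 87.7, 57.9 and 56.7 CPM, the highest of the 5 stages at 2 wk and the lowest at 4, 5 and 6 wk. Most remodeling-like cells of 2 wk belonged to the cluster led by Rapgef5, Pamr1 and Angpt2. S phase-like cells (30.7, 129, 290.4, 205 and 171 CPM) and mitotic-like cells (36.5, 175, 248, 168 and 165 CPM) were also lowest at 2 wk and highest at 4 wk.

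The share of antral-like cells with an Igf1 UMI moved with the level. After thinning to 3000 UMIs per cell it was 4.02%, 39.2%, 59.1%, 36.9% and 39.1%, and without thinning 21.2%, 77.4%, 91.8%, 70.7% and 85.0%, with median depths of 13022 to 16450 UMIs. In lymphocyte-like cells of the 6 wk library, which should lack the gene, it was 3.45% thinned (1 of 29 cells) and 3.03% unthinned, at a median of 4389 UMIs. This background rests on 1 cell of 1 library, so the share at 2 wk is not placed above or below it. By level, the antral-like 24.9 CPM at 2 wk stood beside 5.98 CPM in the free-RNA reference pooled over ages.

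Igf1r was 231, 134, 161, 209.6 and 244 CPM in antral-like cells and 246, 186, 191, 242 and 288 CPM in primary-like cells. Remodeling-like cells held 252, 183, 229, 287 and 334 CPM, 1.37-fold to 1.43-fold above antral-like cells at 4, 5 and 6 wk. No stage differed from another by 2-fold in every library.

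Among the binding proteins, Igfbp4 was highest in remodeling-like cells in every library, at 47.5, 75.4, 72.6, 92.5 and 97.2 CPM. Antral-like cells held 19, 49.9, 30.1, 36.9 and 12.4 CPM and primary-like cells 7.90, 13.1, 26.8, 14.7 and 8.66 CPM, which at 2 and 6 wk was below the 12.0 CPM of the free-RNA reference pooled over ages. Within the remodeling-like cells at 4, 5 and 6 wk, Igfbp4 lay in the cluster led by S100a6 and Tinagl1 (132, 132 and 158 CPM) more than in that with Lox and Prg4 (21.5, 40.9 and 36.7 CPM).

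Igfbp5 was highest in primary-like cells from 3 wk on, at 558, 239.8, 461 and 524 CPM. At 2 wk primary-like cells held 1265 CPM and remodeling-like cells more, 1483 CPM. Antral-like cells held 1017, 53.9, 6.01, 20.6 and 21.1 CPM, which was 1.24-fold below primary-like cells at 2 wk and up to 39.9-fold below them later. Without the 2 wk library, Igfbp5 met the 2-fold rule. After thinning, 87.3%, 65.9%, 33.4%, 49.0% and 56.5% of primary-like cells and 69.1%, 10.8%, 1.46%, 3.64% and 4.12% of antral-like cells had an Igfbp5 UMI, against 0 of 29 lymphocyte-like cells at 6 wk (where the floor of 3 cells used for a count of 0 is 10.3%). Without thinning the shares were 52.5 to 98.1% of primary-like and 6.19 to 83.4% of antral-like cells, against 3.03% of the lymphocyte-like cells. Between 1 and 52 antral-like and between 1 and 13 primary-like cells per library were too shallow to be thinned.

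Igfbp6 was the member that separated primary-like from antral-like cells in every library. Primary-like cells held 33.8, 50.02, 50.8, 43.5 and 42.0 CPM and antral-like cells 2.31, 3.18, 2.30, 1.61 and 2.17 CPM, 14.6-fold to 27.1-fold less. The antral-like levels were below the 5.98 CPM of the free-RNA reference. Remodeling-like cells held 85.2 and 63.7 CPM at 2 and 3 wk and 12.9, 17.1 and 11.0 CPM at 4, 5 and 6 wk.

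Pappa was 27.5, 3.78, 1.59, 5.11 and 3.26 CPM in antral-like cells against 1.32, 0.851, 0.917, 0.509 and 0.406 CPM in primary-like cells. All primary-like levels but that of 2 wk were below the 0.997 CPM of the free-RNA reference. The ratio was 1.73 at 4 wk and reached 20.9 at 2 wk, so the gene missed the 2-fold rule, which it met without the 4 wk library, with the members among the clustering genes and at resolution 0.6 of the clustering. Within antral-like cells the cluster led by Cyp11a1, Inhba and Lhcgr, genes of late follicles, held 51.3, 8.67, 1.17, 10.3 and 6.47 CPM.

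By count, 1.95% of 12984 genes were higher and 2.34% lower in antral-like than in primary-like cells in all 5 libraries. Of 8 members tested, none was higher and Igfbp6 was lower, and the median log2 ratio was 0.03 for the members and −0.01 for all genes. Of 13 partner genes, the adaptor Grb14 was higher (4.15-fold to 8.72-fold) and the noncoding RNA H19 lower (15.3-fold to 157-fold).

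In remodeling-like over antral-like cells at 4, 5 and 6 wk, 5.23% of 12743 genes were higher and 3.4% lower. Of 8 members tested, 3 were higher and 1 was lower, with a median log2 ratio of 0.48 against −0.02 over all genes. Igfbp6 was 5.05-fold to 10.7-fold higher, Igfbp5 2.58-fold to 3.58-fold and Igfbp4 2.41-fold to 7.85-fold, while Igf1 was 3.24-fold to 3.498-fold lower. The Igfbp4 and Igfbp5 calls depended on the clustering: with the members kept among the clustering genes their lowest ratios were 1.88 and 1.99. The Igfbp5 difference also lay in part of the remodeling-like cells. At 4, 5 and 6 wk the cluster led by Rapgef5, Pamr1 and Angpt2 held 92.7, 314 and 287 CPM Igfbp5, that with S100a6 and Tinagl1 9.23, 33.7 and 39.2 CPM, and that with Lox and Prg4 3.44, 18.4 and 5.64 CPM, which was below the antral-like level at each of these ages. Markers of stromal-like cells summed in remodeling-like cells were 0.86 to 1.84% of their stromal level at these ages, and granulosa markers were 40.1 to 45.3% of the granulosa-like level. Of 13 partner genes, 5 were higher and none was lower: the growth hormone receptor Ghr (4.45-fold to 5.80-fold), Stc1 (3.73-fold to 57.2-fold), Grb10 (3.16-fold to 5.02-fold), the RNA-binding protein gene Igf2bp2 (2.63-fold to 21.8-fold) and H19 (37.4-fold to 139-fold). Among the remodeling-like clusters, H19 was a leading gene only of that led by Rapgef5, Pamr1 and Angpt2. Ghr was one only of that with Lox and Prg4. The Igfbp6 and partner ratios are not divided by cluster here, so they are not read as traits of all remodeling-like cells.

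Granulosa clusters that took no stage name also differed. The largest, 1854 cells led by Vpreb3 and Cda, scored highest for remodeling-like, while Vpreb3 is on the antral-like list. It stayed unnamed for this reason, so antral-like and remodeling-like levels and their ratios leave these cells out. A cluster of 656 cells led by the interferon-inducible genes Ifi204 and Mndal held the highest Igfbp2 of the granulosa-like cells, at 279.9 to 595 CPM, with a median Igf1 of 18.9 CPM. By mean standardized marker level, this cluster scored highest for primordial-like (1.88, against 1.27 for primary-like). It took no name because fewer than 3 primordial-like markers were detected. A cluster led by Gldn and Calb1 held a median of 489.5 CPM Igfbp5. Among the named clusters, the primary-like cluster led by H19 and Hamp2 held a median of 782 CPM Igfbp5 and 82.6 CPM Igfbp6, and the antral-like cluster led by Frzb held a median of 287 CPM Igf1.

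Between ages, Igf1 and Igfbp5 changed in granulosa-like cells in opposite directions, while in stromal-like cells both fell. The extreme levels in granulosa-like cells were those of 2 and 4 wk. Fewer cells of a stage and less RNA per cell cannot be told apart in the granulosa-like sum, so each stage was also read on its own.

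**Figure D4:**
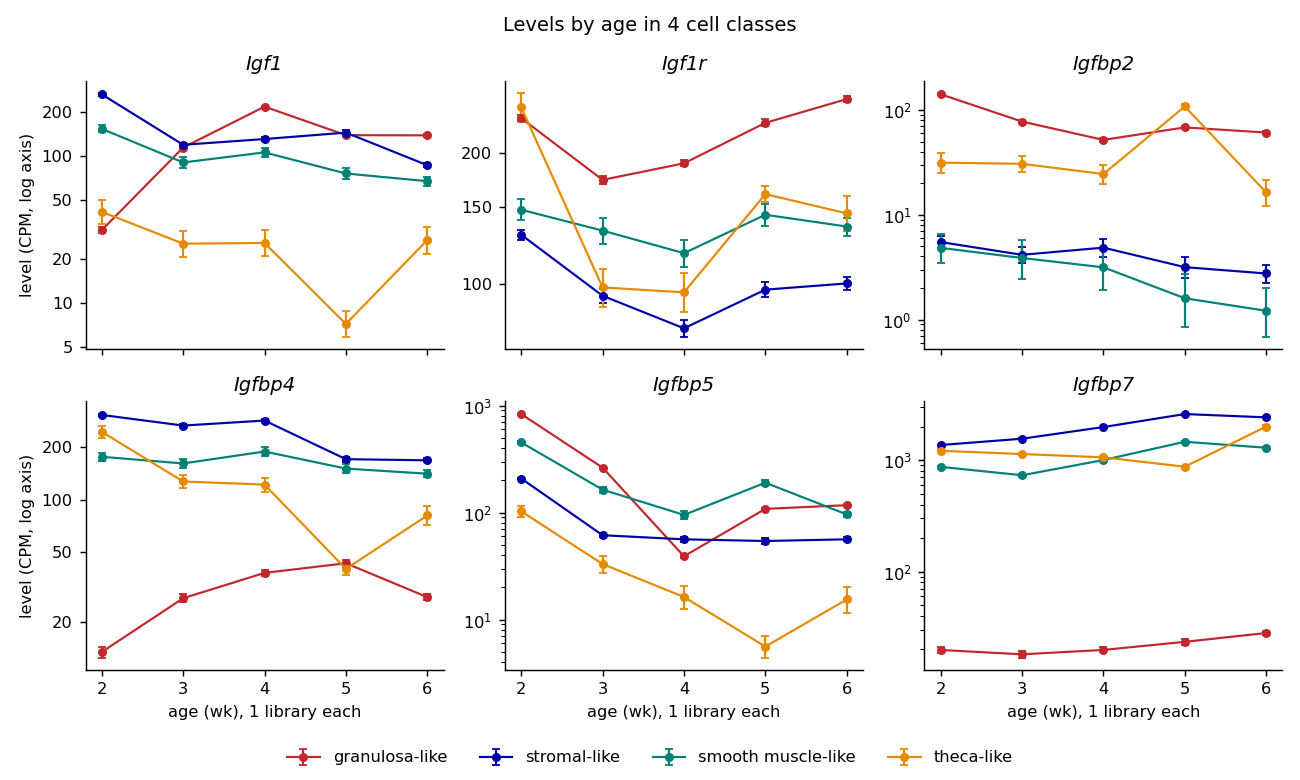
Level of 6 members (CPM, log axis) against age in theca-like, smooth muscle-like, stromal-like and granulosa-like cells, 1 library per age, with 95% exact Poisson intervals that cover counting error only. Granulosa-like Igf1 goes from 31.3 CPM at 2 wk to 216 CPM at 4 wk as Igfbp5 goes from 832 to 39.0 CPM, and theca-like Igfbp2 stands out at 5 wk with 108 CPM.

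In granulosa-like cells at 6 wk over 2 wk, 6.56% of 13834 genes were higher and 7.07% lower. Of 9 members tested, 2 were higher and 5 were lower, with a median log2 ratio of −1.20 against 0.00 over all genes. Igf1 was 4.41-fold higher (95% interval 4.19 to 4.64) and Igfbp4 2.06-fold higher (1.89 to 2.24). The Igfbp4 ratio divides by the 2 wk level of 13.5 CPM, from which no expression is read. Igfbp5 was 7.10-fold lower (6.94 to 7.26), Pappa 2.48-fold (1.97 to 3.14), Igfbp2 2.32-fold (2.24 to 2.41), Igfbp6 2.31-fold (2.13 to 2.51) and Igfbp3, on 62 UMIs, 2.31-fold (1.35 to 4.06). Igf1r and Igfbp7 stayed within 2-fold. When the stages were given equal weight, Igf1 alone was higher and Igfbp5, Igfbp6 and Pappa were lower. At 4 wk over 2 wk, where both tables come from the same Cell Ranger version, Igf1 was 6.92-fold higher and Igfbp5 21.3-fold lower.

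Within the stages, Igf1 was higher at 6 than at 2 wk by 5.01-fold in primary-like, 5.58-fold in S phase-like, 4.53-fold in mitotic-like and 7.58-fold in antral-like cells, and 1.504-fold lower in remodeling-like cells. Igfbp5 was lower in each of the 5, by 2.41-fold in primary-like, 5.15-fold in S phase-like, 17.8-fold in mitotic-like, 24.6-fold in remodeling-like and 48.2-fold in antral-like cells. The remodeling-like clusters differed between these ages, and within the cluster led by Rapgef5, Pamr1 and Angpt2 alone Igfbp5 went from 1566 to 287 CPM. Each of the 3 antral-like clusters had this pattern: Igf1 went from 29.997 to 179.5, from 18.7 to 154 and from 30.9 to 268 CPM between 2 and 6 wk, and Igfbp5 from 710.4 to 26.1, from 1104 to 21.1 and from 1490.3 to 9.79 CPM.

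Antral-like cells were compared at 5 over 2 wk, the ages at which the study looks at antral follicles of different waves, and 4.49% of 9786 genes were higher and 3.59% lower. Of 7 members tested, Igf1 was 7.54-fold higher (6.13 to 9.37), while Igfbp5 was 49.4-fold lower (41.7 to 58.8) and Pappa 5.38-fold lower (3.64 to 8.12). For its antral clusters the paper also reports much higher Igfbp5 in the first wave, but Igf1 at comparable levels in both waves. The stages were rebuilt here, and why Igf1 differs from the paper was not tested. The median log2 ratio was −0.26 for the members and −0.00 for all genes. Of 9 partner genes, 4 were higher, Ghr by 6.36-fold, Grb14 by 4.98-fold, the protease gene Htra1 by 3.17-fold and the receptor substrate Irs2 by 2.31-fold. Igf2bp2 was 33.9-fold lower. From the same libraries, the paper already reports Ghr and Grb14 as lower in antral granulosa cells of the first wave. Because the partner list was chosen with earlier results known, this count is a description only.

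Over all granulosa-like cells at 6 over 2 wk, 4 of 13 partner genes were higher, Grb14 by 10.2-fold, Ghr by 9.07-fold, Stc1 by 4.47-fold and Htra1 by 2.41-fold. Igf2bp2 was 11.9-fold lower and Stc2 4.61-fold lower.

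In stromal-like cells at 6 over 2 wk, 4.24% of 13169 genes were higher and 6.35% lower. No member of 9 tested was higher, and Igf1 was 3.03-fold lower (2.92 to 3.16), Igfbp5 3.70-fold (3.53 to 3.88) and Pappa 4.12-fold (3.09 to 5.59), with a median log2 ratio of −0.86 against −0.00 over all genes. Igfbp2 missed the rule narrowly at 1.99-fold lower, and Igfbp7 was 1.77-fold higher. Of 13 partner genes, H19 was 12.2-fold lower, Igf2bp2 2.77-fold and Stc2 2.52-fold, and none was higher. Granulosa markers in stromal-like cells were 3.6 to 6.5% of their granulosa-like level over the 5 libraries. Col14a1 adventitial fibroblast-like cells, described below, held the highest Igf1 and Pappa of the mesenchymal subgroups. They numbered 226 at 2 wk and 40 at 6 wk. Within them Igf1 went from 1629 to 616 CPM and Pappa from 79.5 to 31.4 CPM. How much of the stromal-like ratios comes from fewer of these cells was not tested.

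Igf1 thus moved 4.41-fold up in granulosa-like cells and 3.03-fold down in stromal-like cells between the same libraries, and this difference was not tested because each age has 1 library. Both sums mix groups of cells whose numbers differed between ages. In smooth muscle-like cells Igf1 was 2.27-fold lower at 6 wk, and in surface epithelial-like cells 5.95-fold lower (65 cells at 6 wk). Igfbp5 was lower at 6 than at 2 wk in granulosa-like, stromal-like, smooth muscle-like (4.70-fold), theca-like (6.67-fold), pericyte-like (8.77-fold), blood endothelial-like (6.26-fold) and hematopoietic-like cells (25.7-fold). Surface epithelial-like cells were the exception, at 1.16-fold higher. Granulosa-like Igfbp5 was itself highest at 2 wk (832 CPM), and the part of granulosa RNA in the ratios of the other classes was not tested. The hematopoietic-like ratio starts from 268 CPM in 51 cells at 2 wk. There neutrophil-like cells gave 11 Igfbp5 UMIs, macrophage-like and lymphocyte-like cells 2 each and dendritic-like cells 0. Most of that level thus came from hematopoietic-like cells without a subgroup name, and the ratio is not read as a change in a named blood cell type.

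Theca-like cells were compared with stromal-like cells in each library, and 2.7% of 14559 genes were higher and 7.49% lower in all 5. The 1474 theca-like cells were fewer than the 2550 cells named early theca-like in the second clustering described below. With members among the clustering genes, a first cluster of 2542 cells with Hhip and Mest among its leading genes was named stromal-like. The stromal-like side thus also holds early theca-like cells. Of 9 members tested, Igfbp2 was higher (5.05-fold to 34.3-fold), and Igf1 (3.23-fold to 20.01-fold), Igfbp3 (11.7-fold to 67.1-fold, with 0 UMIs in theca-like cells at 4 wk) and Igfbp6 (2.33-fold to 9.94-fold) were lower. The median log2 ratio was −1.45 against −0.05 over all genes. Stromal markers in theca-like cells were 14.3%, 10.7%, 9.69%, 2.63% and 18.3% of their stromal level. They were lowest at 5 wk, as were the theca-like levels of Igf1, Igfbp4, Igfbp5, Igfbp6 and Igfbp7, and the part of stromal RNA in these levels was not tested. Of 14 partner genes none was higher, and Irs2 (2.26-fold to 3.54-fold), Ghr (2.34-fold to 4.33-fold), Igf2bp2 (2.11-fold to 7.43-fold) and Pappa2 were lower. Pappa2 gave 1 theca-like UMI over the 5 libraries, and a count of 0 passes the rule, so no difference is read from its call.

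At 5 over 2 wk in theca-like cells, 9.22% of 10475 genes were higher and 8.22% lower. Of 8 members tested, Igfbp2 was 3.44-fold higher (2.76 to 4.34), and 5 were lower: Igfbp5 18.4-fold (14.2 to 24.0), Igfbp4 6.07-fold (5.41 to 6.81), Igf1 5.79-fold (4.37 to 7.67), Igfbp6 3.18-fold (2.76 to 3.66) and Pappa 2.84-fold (1.86 to 4.28). The median log2 ratio was −1.59 against −0.09 over all genes. In the second clustering of the mesenchymal cells, steroidogenic theca-like cells formed 2 clusters, 1 of 801 cells with Cyp11a1 and Fabp3 among its leading genes, of which 57.4% came from 1 library, and 1 of 683 cells with Cpa1 and Gsta2, of which no library gave more than 25.6%. A ratio between ages in theca-like cells thus also carries any difference between these clusters. Granulosa-like cells held 832 CPM Igfbp5 at 2 wk, and theca-like cells carried granulosa markers. The part of granulosa RNA in the theca-like Igfbp5 ratio was not tested. The Igfbp2 increase belonged to 5 wk, since 4 wk gave 24.5 CPM and 6 wk 16.4 CPM. Of 13 partner genes, Stc1 was 5.04-fold and Grb14 2.90-fold higher, and Igf2bp2 (7.62-fold), H19 (6.23-fold), Stc2 (2.47-fold) and Grb10 (2.35-fold) were lower.

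The mesenchymal cells were clustered a second time, which divided them into 9 subgroups named from markers. A small subgroup of fibroblasts stood out for these genes. Cells named Col14a1 adventitial fibroblast-like, 741 in all, held the highest Igf1, Igfbp3, Igfbp4 and Pappa of the subgroups in every library.

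**Figure D5:**
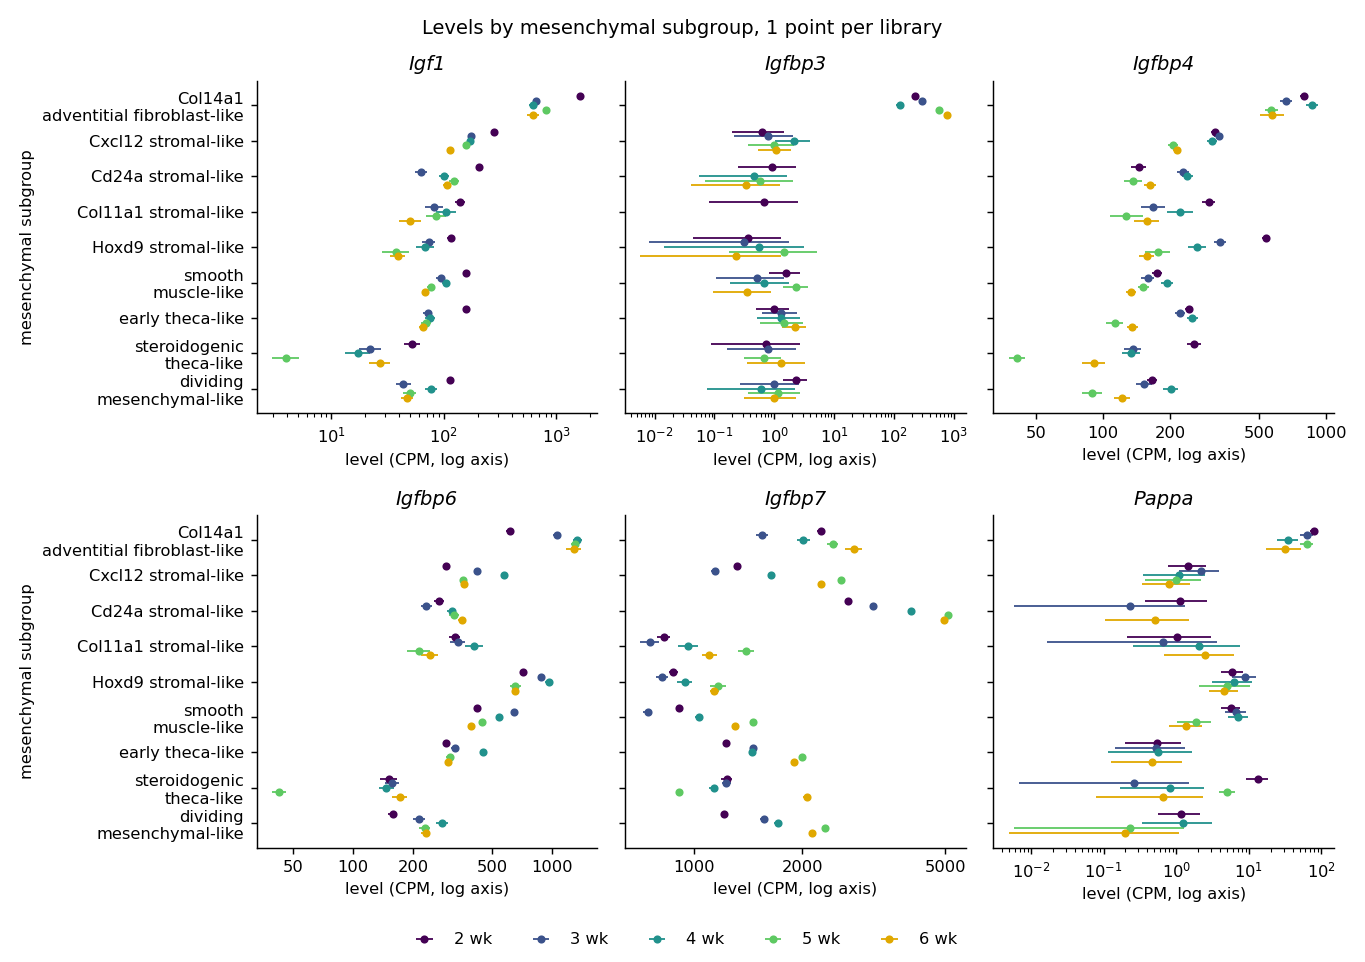
Level of 6 members (horizontal, CPM, log axis) in the 9 mesenchymal subgroups, 1 point per library coloured by age, with 95% exact Poisson intervals. Libraries with 0 UMIs are not drawn. Col14a1 adventitial fibroblast-like cells lie at the right of the Igf1, Igfbp3, Igfbp4 and Pappa panels, with Igfbp3 between 128 and 787 CPM, and Cd24a stromal-like cells lie at the right of the Igfbp7 panel.

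In these fibroblasts Igf1 was 1629, 661, 620.1, 808 and 616 CPM at 2, 3, 4, 5 and 6 wk. Igfbp3 was 227, 301, 128, 572 and 787 CPM, and Pappa 79.5, 63.0, 34.5, 63.2 and 31.4 CPM. The libraries rest on 226, 222, 131, 122 and 40 cells. Igfbp4 was 799, 663, 869.5, 568 and 572 CPM. All libraries thus lay above every other subgroup for these genes, while Igfbp6 (613, 1055, 1337, 1301 and 1279.7 CPM) exceeded the Hoxd9 stromal-like cells (709.6, 882, 961, 652 and 654 CPM) in 4 of 5.

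Other subgroups stood higher for other members, not always in every library. Cd24a stromal-like cells held the most Igfbp7, at 2676, 3156, 4010.1, 5076 and 4968 CPM. Steroidogenic theca-like cells held the most Igfbp2, at 25.0, 26.3, 19.7, 106 and 13.3 CPM, and Hoxd9 stromal-like cells held 206, 180.1, 151, 207 and 216 CPM Igf1r, above the steroidogenic theca-like cells in all libraries but that of 2 wk (244 CPM). Igfbp5 was 436, 155, 96.5, 193 and 98.8 CPM in smooth muscle-like cells, above the Col14a1 adventitial fibroblast-like cells in all but that of 4 wk (146 CPM).

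Steroidogenic theca-like cells held Igf1 at 52.5, 22.1, 17.3, 3.96 and 27.0 CPM. Granulosa markers there were 15.8% of their granulosa-like level at 5 wk and 2.44 to 5.44% in the other libraries. The part of granulosa RNA in the Igfbp2 level of these cells at 5 wk was not tested. Early theca-like cells, which carry markers of younger theca, held 158 CPM Igf1 at 2 wk and 64.8 CPM at 6 wk.

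Among the hematopoietic-like cells, macrophage-like cells numbered 133 and reached 30 in the 5 and 6 wk libraries only. They held 639.8 and 242 CPM Igf1 and 221 and 284 CPM Igfbp4. The reference of lymphocyte-like and dendritic-like cells held 5.98 CPM Igf1 over all ages.

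The genes whose log2(CPM + 1) was most like that of a member over the 46 class-by-library sums were named from 13292 genes with at least 500 UMIs. The sums share 5 libraries and the same classes, so the correlations are a description. Igfbp4 was most like Piezo1 (Pearson's r of 0.90), Tgm2 (0.84) and Mknk2 (0.83), and Igfbp3 like Ctnnbip1 (0.86), Cd34 and Plekhg1 (0.81 each). Igfbp7 was most like Chst2 (0.91), Eva1b and Col4a1 (0.90 each), and Igfbp6 like Col6a2 and Adgrl3 (0.89 each) and Aox3 (0.88). Igfbp2 was most like Gsta4 (0.90), Amhr2 (0.89), the receptor of anti-Müllerian hormone, and Espn (0.88), and Igfbp5 like Dctn6 (0.88), Axin2 and Emx2os (0.87 each). The highest values were lower for Igf1r with Adgra3, Serf1 (0.79 each) and Tceal9 (0.78), for Pappa with Lrrn4cl (0.77), Dtx1 and Olfm1 (0.76 each), and for Igf1 with Fbln1 (0.64), Cmtm7 (0.60) and Acot7 (0.59).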

How the data were processed

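Ovarian cells gave 5 libraries, which the labels put at the ages 2, 3, 4, 5 and 6 wk, 1 library for each. The authors aligned the reads to mm10 and counted UMIs with Cell Ranger, and what they deposited are raw counts of UMIs per gene and cell, whole and not normalized. The labels name Cell Ranger 3.1.0 and Seurat 4.1.0, whereas the headers of the 5 and 6 wk matrices name Cell Ranger 6.0.1. Of 31053 feature IDs, 31011 (99.9%) are in the GENCODE vM21 annotation of the same build, and start regions and gene positions were credited to RefSeq GRCm38.p6. Counting is of reads on the strand of the gene by the default of Cell Ranger.

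The members and gene lists were chosen with earlier results of these data known. All deposited cells were clustered in R 4.3.3 with Seurat 5.3.0: log-normalization, 2000 variable genes less 15 listed genes, integration by anchors, 50 principal components of which 30 were used, 20 neighbours and resolution 1. Granulosa-like, mesenchymal and hematopoietic-like cells were clustered again. A name needed 3 detected markers, where detection meant a UMI in 10% or more of its cells and 1.5 times the CPM of the median cluster. Clusters with at least 50% doublets, over 90% of cells from 1 library, low UMIs or leading genes of another type stayed unnamed, limits chosen once the clusters had been looked at. Names are rebuilt and may differ from those of the study. Scrublet (scanpy 1.11.5) called 2.08 to 5.01% of the cells of a library doublets, which were kept except in an alternative.

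UMIs were summed per class and library and divided by the total (CPM) in Python 3.11.15 with numpy 2.4.6, pandas 2.3.3 and scipy 1.17.1. The named genes are all members, partner genes that met the 2-fold rule, and the 3 genes most like each member. Leading genes of clusters were named after their values were seen. The calculation was checked on simulated data. Alternatives were other clustering genes, resolution 0.6, doublets or cells under 1000 genes or over 10% mitochondrial UMIs left out, per-cell means, another denominator, 3-fold, 200 UMIs, each library left out, and stages weighted equally. Chosen after seeing the data were 4 over 2 wk and antral-like over primary-like cells at 4, 5 and 6 wk only. Proteins were not used here.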

Additional observations from a re-analysis of the deposited data

Results flagged for a closer look

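Igf1 went in opposite directions between 2 and 6 wk in different cell classes. The ratio of its level at 6 wk over 2 wk was 4.41 in granulosa-like cells, 0.330 in stromal-like cells and 0.441 in smooth muscle-like cells. For Igfbp4 the ratio was 2.06 in granulosa-like cells and 0.333 in theca-like cells. The granulosa-like ratio divides by a 2 wk level of 13.5 CPM, from which no expression is read. With stages weighted equally, Igfbp4 was not called higher in granulosa-like cells. These differences between classes were not tested, because each age has 1 library. The mix of cells within a class also differed between ages. No group had 4 or more replicate samples in which a library could be set against the others.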

How the results depend on the processing

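With another fold, 3 instead of 2, the members called numbered 1 higher in remodeling-like over antral-like cells (Igfbp6), and 1 higher (Igf1) and 1 lower (Igfbp5) in granulosa-like cells at 6 over 2 wk. With at least 200 UMIs, 1 was lower in antral-like cells at 5 over 2 wk (Igfbp5). With members among the clustering genes, 1 was higher in antral-like over primary-like (Pappa) and 1 in remodeling-like over antral-like cells (Igfbp6). At resolution 0.6, 1 was higher in antral-like over primary-like (Pappa) and 1 in granulosa-like cells at 6 over 2 wk (Igf1). In granulosa-like over mesenchymal cells 1 was higher (Igfbp2) with doublets left out, with the cell filter, with per-cell means and without mitochondrial and ribosomal genes. The cell filter also gave 2 higher in antral-like cells at 5 over 2 wk (Igf1, Igfbp4), and per-cell means 1 higher in granulosa-like cells at 6 over 2 wk (Igf1). Equal weights for stages gave 1 higher (Igf1) and 3 lower (Igfbp5, Igfbp6, Pappa). In 4 over 2 wk, 3 were lower in granulosa-like cells (Igfbp2, Igfbp5, Pappa), and in theca-like cells 0 were higher and 3 lower (Igf1r, Igfbp4, Igfbp5), and the theca-like Igfbp2 log2 ratio reversed to −0.36. With 4, 5 and 6 wk only, 2 were lower in antral-like over primary-like cells (Igfbp5, Igfbp6).

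Leaving out each library in turn gave 0 to 1 higher and 4 lower in granulosa-like over mesenchymal cells (Igfbp2 without 5 wk), 0 to 1 higher (Pappa without 4 wk) and 1 to 2 lower (Igfbp5 without 2 wk) in antral-like over primary-like cells, 3 higher and 1 lower in remodeling-like over antral-like cells, and 1 higher and 3 to 4 lower in theca-like over stromal-like cells. Of 176 counts under alternatives, 153 were within 1.5 times the reported count. The ratios and levels moved more often. Of 606 log2 ratios under alternatives, 380 were classed as the same, 225 as moved and 1 as reversed. Of 900 levels, 588 were classed as the same and 312 as moved. The cause of these changes was not tested. No paired analysis was possible because each age has 1 library. Small classes, such as the 40 adventitial fibroblast-like cells at 6 wk, limit the counting precision.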
